A study of Mus musculus with 103 samples.

Results

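The genes described here are 45 listed cell cycle genes, which act in DNA replication, in the G1 phase or in mitosis. They were chosen by name from a list, and each was measured by the probe sets that carry its gene symbol and no other. Of the 45, 44 were measured, among 19938 genes tested in all, and Ccnb1 had no such probe set. Pcna and Top2a had 2 probe sets each, and the one with the higher mean log2 ratio was used. By role, 14 of the measured genes act in replication, 8 in G1 or the passage into S phase, and 22 in mitosis.

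A dividing cell loads the Mcm2 to Mcm7 helicase on its DNA in G1 phase with the help of Cdc6 and Cdt1, unwinds and copies the DNA in S phase, and then builds a spindle that separates the chromosomes. Cyclins and their kinases drive each step, and E2f and Foxm1 transcription factors switch on the genes needed for replication and for mitosis. In the early embryonic face and neural tube most cells are cycling progenitors, and cells that leave the cycle to differentiate stop making most of these transcripts.

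The samples come from craniofacial tissues of CD1 mice, an outbred stock, on each day from E8.5 to E10.5 (E, embryonic day), and no allele or treatment is named. Embryos were flash frozen and cryosectioned, and each region was cut out with an Arcturus Veritas laser capture instrument. After purification with Zymo reagents, the RNA was amplified by NuGEN's Ovation Pico method, biotin-labelled and hybridised to Affymetrix whole-transcript arrays. Of the 103 samples, each with its own array, all but 1 fell into 22 groups by their labels.

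At E8.5 the groups were caudal neural epithelium (n = 4), floor plate (n = 4), non-floor plate neural epithelium (n = 5) and mesenchyme (n = 5). At E9.5 they were neuroepithelium (n = 5), cranial mesenchyme (n = 6), mandibular arch (n = 5), maxillary arch (n = 5), otic vesicle (n = 6) and epidermal ectoderm (n = 7). At E10.5 the neuroepithelium was divided into control, midline, the part under the lateral and the part under the medial prominence (n = 4 each). The other E10.5 groups were the medial nasal prominence (n = 4), lateral nasal prominence (n = 4), maxillary arch (n = 5), mandibular arch (n = 4), maxillary arch ectoderm (n = 4), mandibular arch ectoderm (n = 4), olfactory pit (n = 4) and Rathke's pouch (n = 5). Neither embryos nor pools of embryos are named for single samples. The p-values therefore measure the spread between samples, which may share an embryo, and may be too small. In tissue pieces, fewer cycling cells and less of a transcript per cell cannot be told apart.

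Each value is the log2 of a ratio to a baseline, so that 1 unit is a doubling and 0 is the baseline level. Ratios compare libraries for 1 gene and give no level between genes, so a transcript cannot be called absent from them. Log2 ratios had medians of -0.1 to 0.08 over the arrays and SDs of 0.4 to 1.35, and 11 arrays had an SD over 0.85. In some groups the markers went against the label. In E10.5 maxillary arch libraries 1 to 4, the mean of the surface ectoderm markers was 1.29 to 2.67, against -0.65 in library 5. The E10.5 mandibular arch ectoderm libraries had surface ectoderm markers at -0.44 to 0.07 and mesenchyme markers at 1.21 to 1.56, and its arrays 1 and 3 were the most alike of all pairs (r = 0.947 over genes). Otic vesicle libraries 3 and 5 had surface ectoderm markers at -0.04 and -0.63. Library 5 also had neural epithelium markers at 1.77, against -0.17 to 0.16 in the other otic vesicle libraries. For 4 E10.5 neuroepithelium samples the title says lateral and the tissue label medial, and they are given here as medial.

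Replication genes are known targets of E2f factors and mitotic genes of the complex that binds the cell cycle genes homology region (CHR). Whether promoter letters relate to how the genes move in these libraries was not tested. Windows from 250 bases before to 50 bases after the start were found for 35 of the 45 genes in a RefSeq table (build GRCm38.p6). The E2F letters searched were TTTCCCGC, TTTCGCGC, TTTGCCGC and TTTGGCGC, and the CHR letters TTTGAA, each on both strands. E2F letters stood in 8 of the 35 windows (22.9%), against 2.32% of all 27025 windows in the table. They stood in 6 of 12 replication genes (Mcm3, Mcm5, Mcm6, Mcm7, Cdc6 and Cdt1) and in 1 of 18 mitosis genes (5.56%). CHR letters stood in 12 of 18 mitosis genes (66.7%) and in 2 of 12 replication genes (16.7%), against 18.1% of all windows. CCAAT, which is searched on both strands and can lie beside either, stood in 25 of 35 windows (71.4%) against 37.9%. A match is a description of the letters and not a binding site.

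The 150 bases before the start are shown for 2 genes of the passage into and through S phase and 2 of mitosis that are described below, 5′ to 3′ along the gene. Capitals mark E2F or CHR letters on either strand. In Mcm6 the first capital run holds 2 overlapping E2F matches, at 110 and 106 bases before the start, and another match begins 47 bases before it. Cdk2 has 1 match, read on the other strand. Cdk1 has an E2F match and 2 CHR matches, at 71 and 15 bases, and Cdc20 has 1 CHR match, at 18 bases.
Mcm6, chr1:128359706-128359855, minus strand: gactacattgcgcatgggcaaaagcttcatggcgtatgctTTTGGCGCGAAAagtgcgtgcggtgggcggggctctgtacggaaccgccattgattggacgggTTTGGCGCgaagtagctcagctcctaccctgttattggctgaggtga
Cdk2, chr10:128705052-128705201, minus strand: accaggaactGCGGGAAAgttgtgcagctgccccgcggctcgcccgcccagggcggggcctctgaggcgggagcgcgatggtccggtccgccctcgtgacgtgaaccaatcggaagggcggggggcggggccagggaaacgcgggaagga
Cdk1, chr10:69352913-69353062, minus strand: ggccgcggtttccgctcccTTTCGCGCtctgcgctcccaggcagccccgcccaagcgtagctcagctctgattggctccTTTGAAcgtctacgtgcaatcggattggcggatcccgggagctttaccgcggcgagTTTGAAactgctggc
Cdc20, chr4:118437344-118437493, minus strand: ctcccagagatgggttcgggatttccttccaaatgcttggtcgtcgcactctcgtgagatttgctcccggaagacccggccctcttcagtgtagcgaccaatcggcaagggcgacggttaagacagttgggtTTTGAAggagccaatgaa

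Across the 22 groups, the cell cycle genes were highest in the E8.5 caudal neural epithelium and lowest in the E10.5 Rathke's pouch and medial nasal prominence. The mean log2 ratio over the 44 genes was 0.87 ± 0.1 (SD, n = 4) in caudal neural epithelium, 0.59 ± 0.5 (n = 5) in the E9.5 mandibular arch and 0.48 ± 0.18 (n = 5) in the E8.5 non-floor plate. It was -1.17 ± 0.73 (n = 5) in Rathke's pouch, -1.12 ± 0.64 (n = 4) in the medial nasal prominence, -1.0 ± 0.49 (n = 4) in maxillary arch ectoderm and -0.94 ± 0.68 (n = 4) in the lateral nasal prominence. The 4 caudal neural epithelium libraries lay between 0.81 and 1.02, and the 5 Rathke's pouch libraries between -2.18 and -0.22. Caudal neural epithelium was the highest group for 25 of the 44 genes and the E9.5 mandibular arch for 5. The medial nasal prominence was the lowest group for 11 genes, and maxillary arch ectoderm, Rathke's pouch and the lateral nasal prominence for 7 each. These counts cover the 44 genes only, without a share over all genes, so they do not set the listed genes apart.

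**Figure D1:**
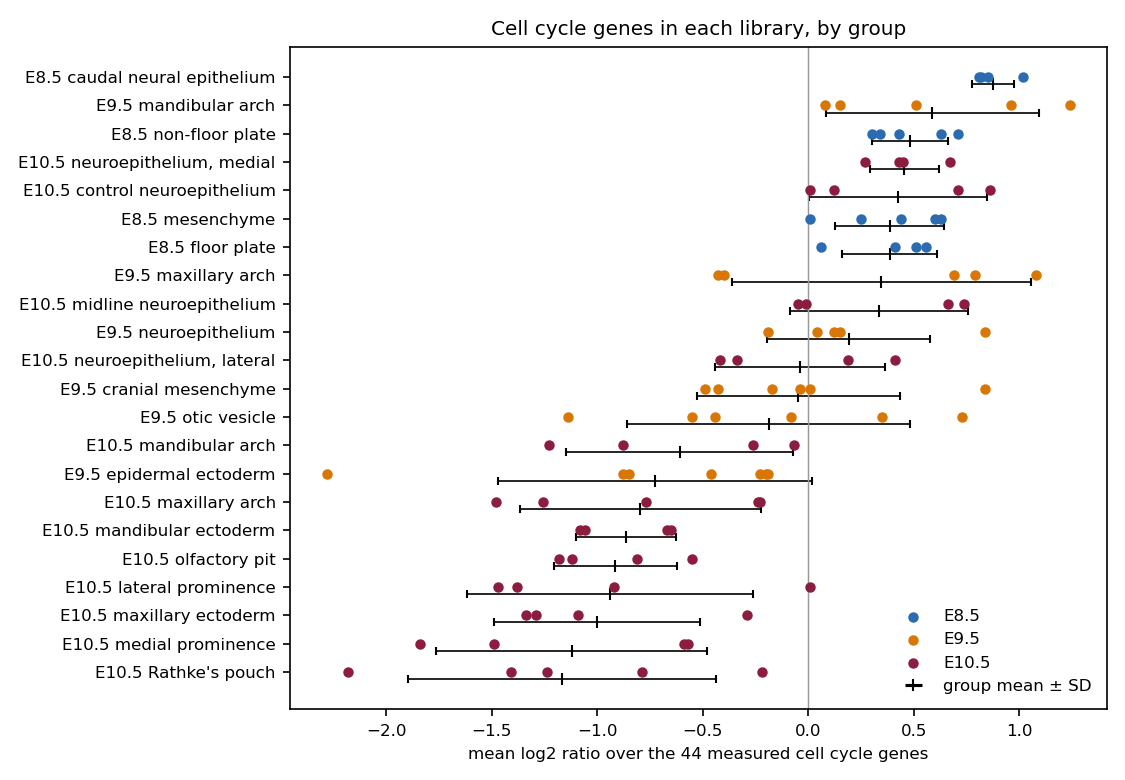
The mean log2 ratio over the 44 measured cell cycle genes in each library (points, coloured by stage), with the group mean and SD as a bar, groups ordered by mean. The 4 E8.5 caudal neural epithelium libraries lie at 0.81 to 1.02, and neighbouring groups in the order overlap.

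Between these ends the order of the groups was not sharp. The E10.5 neuroepithelium groups under the medial prominence (0.45 ± 0.16), control (0.43 ± 0.43) and midline (0.34 ± 0.42) lay among the E8.5 floor plate (0.38 ± 0.22) and E8.5 mesenchyme (0.39 ± 0.26). E9.5 neuroepithelium (0.19 ± 0.39), E10.5 neuroepithelium under the lateral prominence (-0.04 ± 0.4), E9.5 cranial mesenchyme (-0.05 ± 0.48) and otic vesicle (-0.19 ± 0.67) followed. E10.5 mandibular arch (-0.61 ± 0.54), E9.5 epidermal ectoderm (-0.73 ± 0.75) and E10.5 maxillary arch (-0.8 ± 0.57) were lower. Mandibular arch ectoderm (-0.87 ± 0.24) and olfactory pit (-0.91 ± 0.29) stood next. The libraries of neighbouring groups in this order overlapped.

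**Figure D2:**
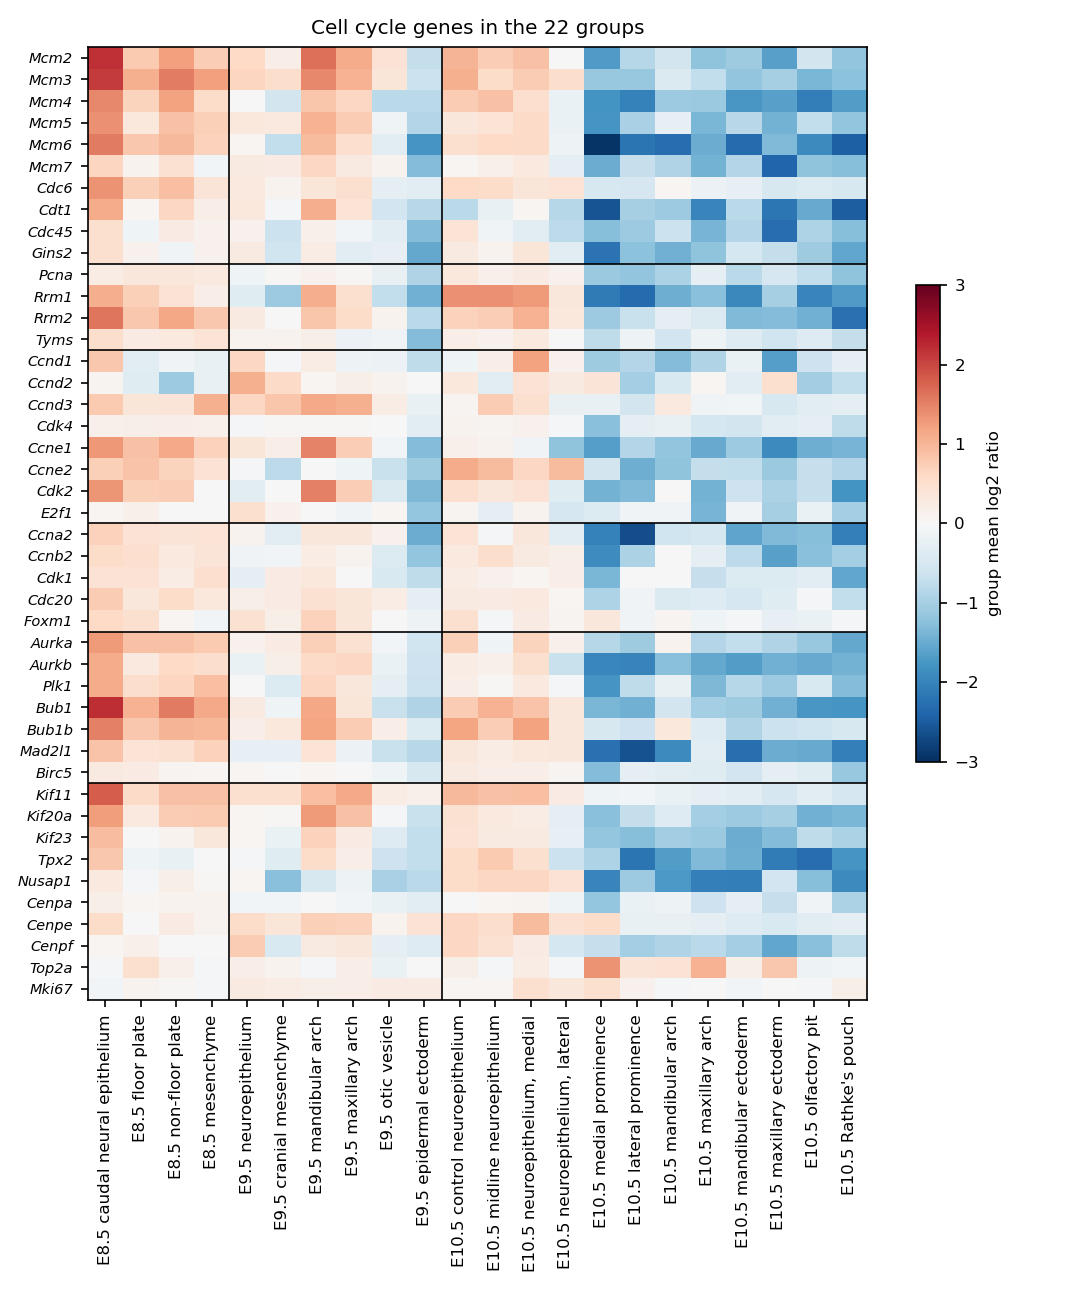
The group mean log2 ratio of each of the 44 genes (lines, ordered by role) in the 22 groups (columns, ordered by stage), with red above and blue below the baseline. Most genes are above 0 in the E8.5 groups and below 0 in the E10.5 prominences, arches and ectoderm, while Mki67 stays within -0.08 to 0.48.

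Single genes spread over the groups to very different extents. The highest and lowest group means were 4.51 apart for Mcm6 (1.56 in caudal neural epithelium, -2.95 in the medial nasal prominence), 3.98 for Bub1 (2.21 to -1.77), 3.89 for Mcm2 (2.19 to -1.7) and 3.84 for Rrm2 (1.6 to -2.24). They were 0.57 apart for Mki67, which encodes the proliferation antigen Ki-67, 0.93 for Foxm1, 1.33 for Cenpa and 1.4 for Cenpe. Mki67 group means ran from -0.08 in mandibular arch ectoderm to 0.48 in the medial nasal prominence.

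A moderated F over all 22 groups passed at an adjusted p under 0.05 for 42 of the 44 genes, against 59.0% of all genes tested. The largest F values belonged to helicase subunits and a checkpoint kinase: Mcm3 10.7 (adjusted p 2.2e-13), Mcm4 8.76 (2.6e-11), Mcm7 7.73 (3.8e-10), Mcm2 7.44 (8.5e-10) and Bub1 7.13 (2e-09). The smallest were Mki67 at 0.93 (adjusted p 0.6), Foxm1 at 1.71 (0.073) and Cenpe at 1.87 (0.043). The median F was 4.78 over the 44 genes and 2.09 over all genes. Mcm3 was at 2.01, 2.37, 2.15 and 1.85 in the caudal neural epithelium libraries and at -1.86 to -0.69 in those of the olfactory pit, its lowest group. Bub1, a kinase of the spindle checkpoint, was at 2.28, 1.91, 2.82 and 1.84 in caudal neural epithelium, all above its level in the Rathke's pouch libraries (-2.54 to -1.09). Kif11, the motor that pushes the spindle poles apart, was at 1.77, 1.27, 2.04 and 2.15 there, against -0.83 to -0.25 in Rathke's pouch.

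The level of the cell cycle genes moved with the low end of each library. The 5th percentile is the log2 ratio below which 5% of a library's genes lie, and its group means ran from -0.36 in caudal neural epithelium to -1.84 in Rathke's pouch. Over the libraries of all 22 groups, the mean of the 44 genes and the 5th percentile had a Pearson r of 0.91 and a Spearman rho of 0.89 (r = 0.91 without the 2 libraries farthest from the median). As deviations from the group means, r was 0.87 and rho 0.86, and by stage r was 0.54 at E8.5 (n = 18), 0.86 at E9.5 (n = 34) and 0.93 at E10.5 (n = 50). Both numbers come from the same arrays, and the listed genes are themselves among the genes that set the percentile. Of the variance of the 5th percentile, 50.23% lay between groups.

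**Figure D3:**
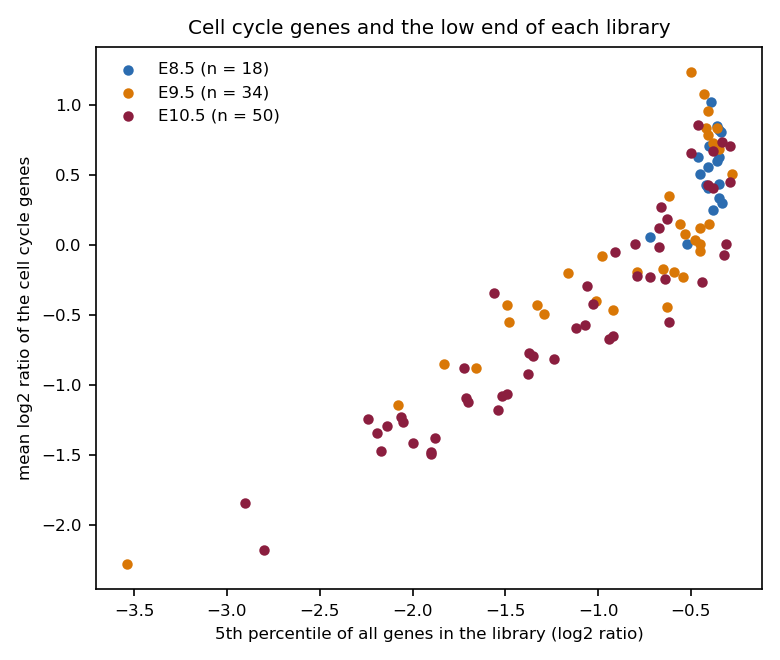
The mean log2 ratio of the 44 genes against the 5th percentile of all genes in the same library, for all grouped libraries, coloured by stage. Libraries with a lower 5th percentile have lower cell cycle genes (r = 0.91), and the 18 E8.5 libraries lie at the upper right.

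Gene by gene, the correlation with the 5th percentile over libraries exceeded 0.5 for 39 of the 44 genes, against 25.29% of all genes, with medians of 0.76 and 0.17. Within groups it exceeded 0.5 for 33 of 44, against 14.63% of all genes, with medians of 0.61 and 0.1. Over libraries it was highest for Mcm6 (0.87) and Mcm5 (0.86) and lowest for Top2a by its chosen probe set (-0.09) and Mki67 (0.03). The group means of the chosen Top2a probe set ran from -0.2 in otic vesicle to 1.34 in the medial nasal prominence. Those of the other Top2a probe set ran from -1.08 in mandibular arch ectoderm to 0.7 in neuroepithelium under the medial prominence. A correlation for that probe set is not given here. Replication and mitosis genes moved together within groups (r = 0.92 between their means, which come from the same arrays). When the 5th percentile entered the fit as a covariate, the F over groups passed for 27 of the 44 genes and for 25.62% of all genes. What sets the 5th percentile of a library was not tested. Values with it in the fit are given gene by gene for the comparisons in which listed genes passed, and as medians for the others.

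The comparison in which most of the 44 genes passed was that of neuroepithelium with the nasal prominences at E10.5. The 4 neuroepithelium groups (16 libraries) had higher cell cycle genes than the medial and lateral nasal prominences (8 libraries): 36 of 44 genes were higher, against 24.0% of all genes, and 1 was lower, against 11.0%. The median difference was 1.33 on the log2 scale over the 44 genes and 0.06 over all genes. With the 4 samples of conflicting labels counted as lateral, 38 genes passed in either direction, against 34.9% of all genes. After quantile normalization between arrays 31 genes were higher and 1 lower, while the shares over all genes turned from 24.0% higher and 11.0% lower to 11.7% and 15.8%. All 10 licensing and helicase genes were higher, with 3 of 4 DNA synthesis genes, 5 of 8 G1 genes, 4 of 5 mitotic cyclins and their partners, 7 of 7 mitotic kinases and checkpoint genes, and 7 of 10 spindle and chromosome genes. Genes outside the list moved similarly: 28 of 35 other replication genes (median 1.21) and 31 of 39 other mitosis genes (median 1.09) were higher.

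Mcm6, a subunit of the replicative helicase, was at -0.58, 0.26 and 1.49 (lowest, median, highest) in neuroepithelium and at -4.44, -2.7 and -0.46 in the prominences. The difference was 2.94 ± 0.49 (SE; adjusted p 4.4e-06, limma). Its ranges met at the ends only, where the highest prominence library overlapped the lowest neuroepithelium libraries. Rrm1, the large subunit of the reductase that makes deoxyribonucleotides, was at -0.25, 1.12 and 2.07 against -3.62, -2.51 and -0.2, a difference of 3.31 ± 0.49 (adjusted p 2.9e-07). The prominence library at -0.2 was lateral nasal prominence 3, which was the highest prominence library over the 44 genes as well (mean 0.01, 5th percentile -0.31). Mcm4 (2.4 ± 0.35), Mcm2 (1.94 ± 0.37), Mcm3 (1.86 ± 0.3) and Gins2, a component of the same helicase (1.82 ± 0.37), were also higher.

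Among G1 genes, Ccne2, a cyclin that activates Cdk2 at the start of S phase, was higher by 1.91 ± 0.37 (adjusted p 4.4e-05) and Cdk2 by 1.6 ± 0.49 (adjusted p 0.0089). The D cyclins, which respond to growth signals, differed among themselves: Ccnd1 was higher by 1.32 ± 0.35 (adjusted p 0.0021), while Ccnd2 (0.5 ± 0.37, adjusted p 0.29) and Ccnd3 (0.66 ± 0.28, adjusted p 0.059) did not pass. E2f1 differed by 0.1 ± 0.27 (adjusted p 0.81).

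Of the mitotic genes, Mad2l1, which holds back anaphase until chromosomes are attached, was at -0.56, 0.4 and 1.01 in neuroepithelium and at -5.28, -2.62 and -0.14 in the prominences, a difference of 2.73 ± 0.51 (adjusted p 2.9e-05). Ccna2, the cyclin of S and G2 phase, was at -2.3, 0.34 and 0.55 against -4.57, -2.25 and -0.08 (2.44 ± 0.41, adjusted p 4.8e-06). Library 4 of the neuroepithelium under the lateral prominence was the one at -2.3, and 2 midline libraries lay below lateral nasal prominence 3. Ccnb2, a B-type cyclin of mitosis, was the only one of the 44 genes whose libraries did not overlap, at -0.01, 0.34 and 0.67 against -3.41, -1.06 and -0.08 (1.74 ± 0.3, adjusted p 8.8e-06). The gap lay between -0.08 and -0.01 only. Here and below, overlap is given for single genes, without a share over all genes. Bub1 (2.15 ± 0.41), Nusap1, which bundles spindle microtubules (2.08 ± 0.38), and Aurkb, the kinase of the chromosomal passenger complex (2.03 ± 0.36), were also higher. Mki67 (-0.08 ± 0.16, adjusted p 0.72) and Foxm1 (0.06 ± 0.2, adjusted p 0.83) did not pass.

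**Figure D4:**
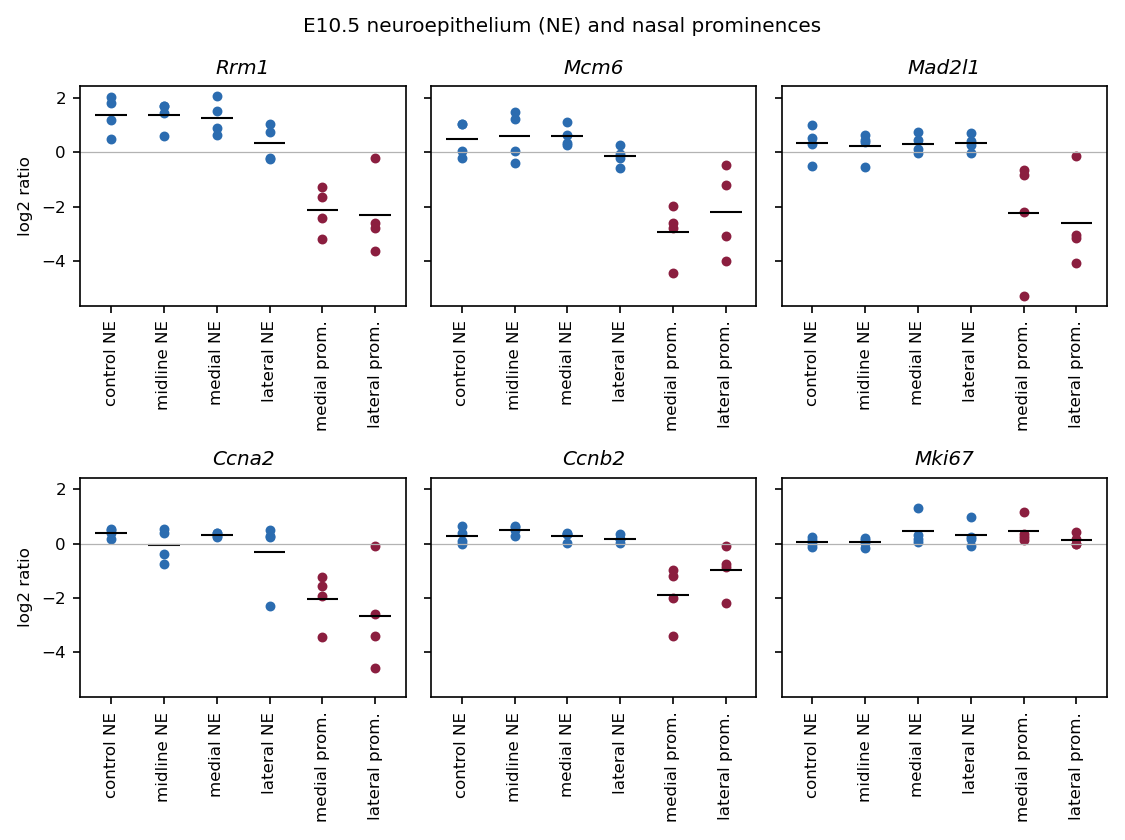
Log2 ratios of 6 genes in each library of the 4 E10.5 neuroepithelium groups (blue) and 2 nasal prominence groups (dark red), with the group mean as a line. For Rrm1, Mcm6, Mad2l1, Ccna2 and Ccnb2 lateral nasal prominence 3 is the highest prominence library, and the Mki67 difference is -0.08.

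Top2a, the topoisomerase that untangles replicated chromosomes, went the other way only by its chosen probe set, which was lower in neuroepithelium by -0.78 ± 0.24 (adjusted p 0.0082). Libraries ran from -0.3 to 0.56 in neuroepithelium and from -0.2 to 2.39 in the prominences. The other Top2a probe set, which is the one annotated with the gene's RefSeq transcript, was higher in neuroepithelium by 0.96 (adjusted p 0.0021), and the mean of both differed by 0.09 (adjusted p 0.74). By the other probe set Top2a was at 0.7 ± 0.59 in neuroepithelium under the medial prominence and at -0.93 ± 0.76 in the lateral nasal prominence (n = 4 each). The direction of Top2a therefore depends on the probe set, in this comparison.

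Of 17 cell cycle inhibitors and exit genes, 6 were higher in neuroepithelium (median difference 0.39), and with the 5th percentile in the fit Gadd45g and Btg2 were the 2 that passed. Gadd45g was higher by 2.55 ± 0.41 (adjusted p 1.8e-06), Ccng1 by 2.15 ± 0.57 (adjusted p 0.0024) and Btg2, known to mark neural progenitors about to make neurons, by 2.02 ± 0.25 (adjusted p 1.9e-09). Among the other replication and mitosis genes, Pole2 (2.46 ± 0.5), Rpa2 (2.36 ± 0.53) and Prim2 (2.23 ± 0.46), and Smc4 (2.47 ± 0.47), Prc1 (2.33 ± 0.42) and Nuf2 (2.25 ± 0.51), had the largest differences. Of these, Pole2 (1.5, adjusted p 0.036), Smc4 (1.44, adjusted p 0.024) and Prc1 (1.57, adjusted p 0.0094) passed with the 5th percentile in the fit, and Rpa2, Prim2 and Nuf2 did not (adjusted p 0.19, 0.077 and 0.22).

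With the 5th percentile in the fit, 15 of the 44 genes passed (14 higher, 1 lower), against 6.039% and 2.744% of all genes, and the median difference was 0.51. The 14 were Mcm2, Mcm3, Mcm4, Mcm6, Cdc6, Rrm1, Ccne2, Cdk4, Ccna2, Ccnb2, Aurkb, Bub1, Mad2l1 and Nusap1, led by Rrm1 at 1.88, Mcm4 at 1.49 and Mad2l1 at 1.27. The 5th percentile itself ran from -1.56 to -0.29 over the neuroepithelium libraries and from -2.9 to -0.31 over those of the prominences. Neural epithelium markers were at 1.08 to 2.34 in the neuroepithelium libraries against -0.71 to 0.21 in the prominences (7 of 10 markers higher). Mesenchyme markers were at -0.93 to -0.11 against 0.55 to 2.05 (8 of 10 lower), and neuron markers at 0.48 to 2.66 against -0.47 to 0.83 (7 of 10 higher). Their part in the difference was not tested.

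**Figure D5:**
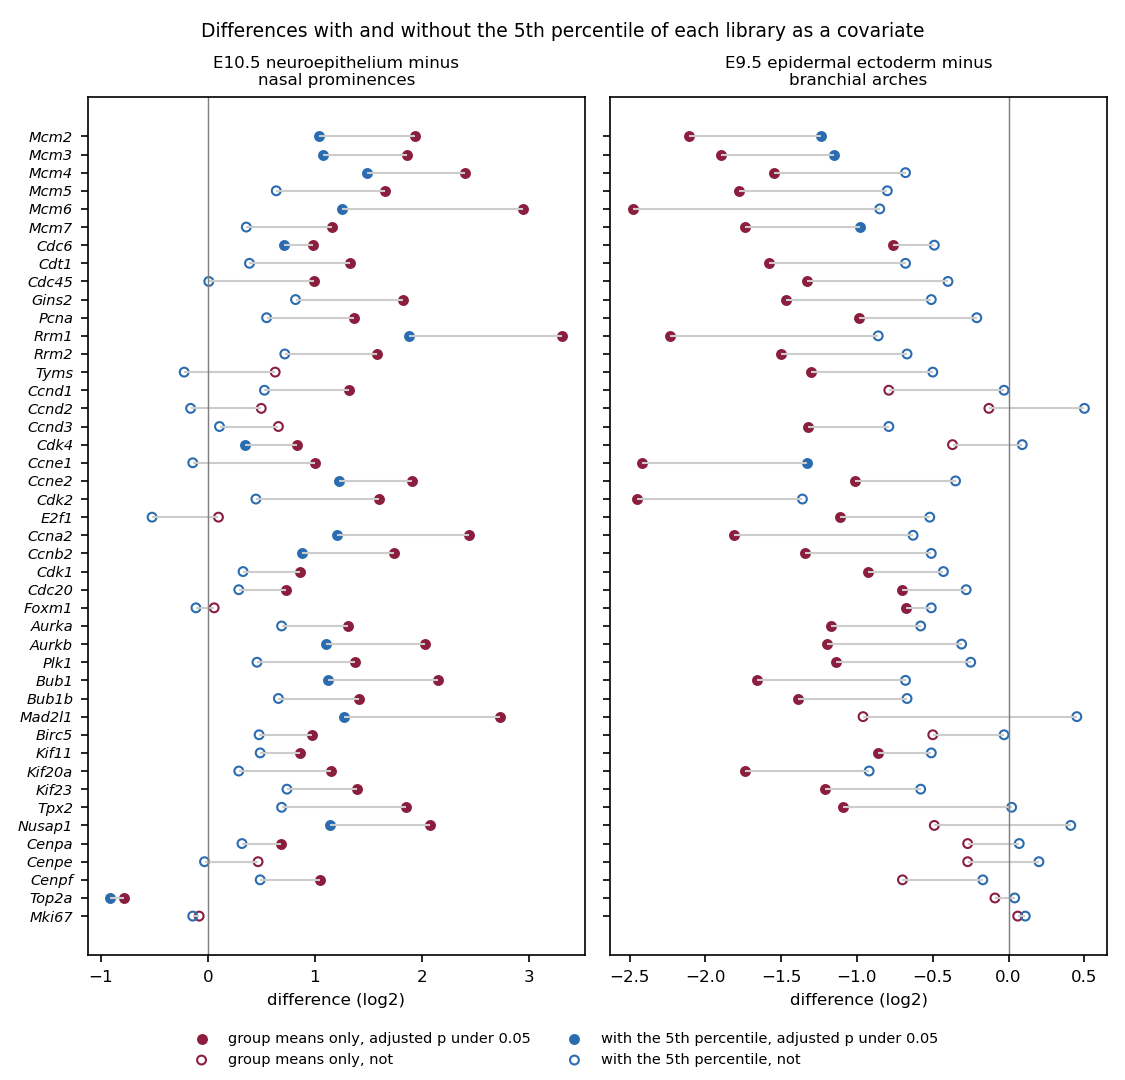
The difference of each gene in E10.5 neuroepithelium minus nasal prominences (left) and E9.5 epidermal ectoderm minus branchial arches (right), without (red) and with (blue) the 5th percentile of each library in the fit, filled where the adjusted p is under 0.05. Most differences move towards 0 with the 5th percentile, from a median of 1.33 to 0.51 and from -1.19 to -0.51.

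At E9.5, epidermal ectoderm (7 libraries) had lower cell cycle genes than the maxillary and mandibular arches (10 libraries). Of 44 genes, 33 were lower, against 23.3% of all genes, and 0 were higher, against 13.6%, by limma at an adjusted p under 0.05. An unadjusted p under 0.05 was found for 36 of the 44 genes (81.8%) and for 47.5% of all genes. The median difference was -1.19, against -0.05 over all genes. After quantile normalization 21 genes were lower and 0 higher, while the shares over all genes turned from 23.3% lower and 13.6% higher to 8.89% and 16.9%. All 14 replication genes were lower, with 5 of 8 G1 genes, 5 of 5 mitotic cyclins and partners, 5 of 7 mitotic kinases and checkpoint genes and 4 of 10 spindle and chromosome genes. Of the other genes, 27 of 35 for replication (median -1.22) and 26 of 39 for mitosis (median -0.96) were lower.

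Mcm6 was at -5.0, -1.51 and 0.19 (lowest, median, highest) in ectoderm and at -0.9, 0.89 and 1.88 in the arches, a difference of -2.48 ± 0.56 (adjusted p 0.00071). Most ectoderm libraries were below 0 and most arch libraries above it, with overlap at the ends. Cdk2 was at -2.65, -1.96 and 0.12 against -1.51, 1.29 and 2.57 (-2.45 ± 0.56, adjusted p 0.00078). Ccne1, the other E-type cyclin partner of Cdk2, was at -3.01, -1.14 and -0.31 against -0.78, 1.48 and 2.19 (-2.42 ± 0.45, adjusted p 5.9e-05). Both overlapped between the groups. Rrm1 was at -2.89, -1.34 and 0.4 against -1.6, 1.46 and 2.64 (-2.23 ± 0.56, adjusted p 0.0019). Mcm7 was the only gene of the 44 with no overlap, at -3.84, -0.77 and -0.34 against -0.22, 0.39 and 1.21 (-1.74 ± 0.32, adjusted p 4.7e-05).

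Of the mitotic genes, Ccna2 (-1.81 ± 0.47, adjusted p 0.0024) and Kif20a, a motor of cell division (-1.74 ± 0.37, adjusted p 0.00032), had the largest differences. Mad2l1 (-0.96 ± 0.58, adjusted p 0.18), Nusap1 (-0.49 ± 0.43, adjusted p 0.37) and Birc5 (-0.5 ± 0.22, adjusted p 0.063) did not pass here. Outside the list, Pole2 (-2.49 ± 0.56) and Ncaph (-1.85 ± 0.47) were lower. Among inhibitors, Cdkn2b (0.45 ± 0.13, adjusted p 0.0043) and Cdkn2a (0.38 ± 0.12, adjusted p 0.011) were higher and Ccng2 (-1.13 ± 0.43, adjusted p 0.034) and Rbl1 (-0.85 ± 0.34, adjusted p 0.039) lower. None of these 6 genes outside the list passed with the 5th percentile in the fit (adjusted p 0.068 for Pole2, 0.3 for Ncaph, 0.28 for Cdkn2b, 0.57 for Cdkn2a, 0.64 for Ccng2 and 0.5 for Rbl1).

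With the 5th percentile in the fit, 4 genes passed, against 3.917% of all genes lower and 1.289% higher: Ccne1 (-1.33, adjusted p 0.01), Mcm2 (-1.24, adjusted p 0.029), Mcm3 (-1.15, adjusted p 0.0073) and Mcm7 (-0.98, adjusted p 0.008). With the replicate number as a block, which the labels do not tie to embryos, 6 genes passed, and over all genes the lower share fell to 2.84% and the higher share to 0.692%. Epidermal ectoderm library 7 had the lowest mean over the 44 genes (-2.28) and the lowest 5th percentile (-3.54) of its group, whose other libraries had means of -0.88 to -0.19. Surface ectoderm markers were at 0.58 to 2.45 in ectoderm against -0.64 to 0.95 in the arches (6 of 10 higher), and mesenchyme markers at -0.72 to 0.89 against 1.64 to 2.63 (8 of 10 lower). Endothelial markers were at -0.72 to 0.7 against 0.36 to 1.99 (9 of 10 lower) and erythroid markers at -2.16 to 0.25 against 0.11 to 1.81 (5 of 7 lower). Their part in the difference was not tested.

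The 33 genes lower in E9.5 ectoderm and the 36 higher in E10.5 neuroepithelium had 29 in common, which are 87.88% of the first and 80.56% of the second. Since 81.8% of all 44 genes were higher in neuroepithelium, the first share is close to what the 44 genes give as a whole. Over all genes tested, the shared genes were 48.2% of those lower in ectoderm and 46.8% of those higher in neuroepithelium. These comparisons share no library. Ccnd2, Cenpe and Mki67 passed in neither, and Top2a passed in neither of these directions.

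In the libraries labelled maxillary arch, the cell cycle genes were lower at E10.5 than at E9.5 (5 libraries each). E10.5 libraries 1 to 4 had surface ectoderm markers at 1.29 to 2.67. Of the 44 genes, 17 were lower, against 6.88% of all genes, and 0 higher, against 1.68%, by limma. An unadjusted p under 0.05 was found for 31 of the 44 genes (70.5%) and for 27.2% of all genes, and the median difference was -1.17, against -0.05 over all genes. After quantile normalization 7 genes were lower and 0 higher, while the shares over all genes turned from 6.88% lower and 1.68% higher to 1.86% and 2.68%. Of the 17, 6 were licensing and helicase genes, 3 G1 genes, 1 a mitotic cyclin partner, 3 mitotic kinases or checkpoint genes and 4 spindle genes, and 0 of the 4 DNA synthesis genes passed. Mcm2 was at 0.21, -1.99, -0.09, -2.24 and -1.9 in the E10.5 libraries and at 1.96, 2.46, 1.77, -0.51 and -0.13 in the E9.5 libraries, a difference of -2.31 ± 0.54 (adjusted p 0.0054). Cdt1, which licenses replication origins, was at -0.6, -3.79, -0.34, -3.25 and -1.91 against 0.98, 1.25, 0.91, -0.33 and -0.78 (-2.38 ± 0.68, adjusted p 0.02). In both genes E9.5 libraries 4 and 5 were the lowest of their group and overlapped the E10.5 range. Cdt1 lost its call without any 1 of 5 libraries (adjusted p 0.058 to 0.09, limma).

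Ccne1 was at -2.06, -0.91, -1.17, -1.8 and -1.59 at E10.5 and at 1.64, 1.38, 1.58, -0.78 and -0.1 at E9.5, with no overlap (-2.25 ± 0.57, adjusted p 0.0096). Cdk2 was at -0.03, -2.24, -0.82, -1.72 and -2.27 against 1.51, 1.79, 1.7, -1.51 and 0.16, with overlap (-2.15 ± 0.72, adjusted p 0.048). Mcm7 (-1.69), E2f1 (-1.28) and Nusap1 (-1.88) did not overlap between the stages either and passed. Cdk2 lost its call without any 1 of 6 libraries (adjusted p 0.11 to 0.18, limma). Ccne1 lost its call without 1 library (adjusted p 0.053, limma). Aurkb (-2.14 ± 0.53, adjusted p 0.0079), Kif20a (-1.9 ± 0.47, adjusted p 0.008), Plk1 (-1.68 ± 0.49, adjusted p 0.023) and Kif11 (-1.4 ± 0.39, adjusted p 0.017) were the mitotic genes lower beside Nusap1, Aurka, Cdc20 and Kif23. Outside the list, 8 of 35 other replication and 10 of 39 other mitosis genes were lower.

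The E9.5 libraries fell into 3 with means over the 44 genes of 0.79, 1.08 and 0.69 and 2 with means of -0.43 and -0.4, whose 5th percentiles were lower as well (-1.33 and -1.01). With the 5th percentile in the fit, 7 genes passed, all lower (Mcm2, Mcm3, Mcm5, Mcm7, Ccne1, Aurkb and Kif20a), against 2.458% of all genes lower. Leaving out 1 library in turn gave 357 to 3715 calls over all genes, against 1707 with all libraries. Without E9.5 library 4 the count of the 44 genes was 26, without E9.5 library 2 it was 3, and it was 7 without E9.5 library 1 or 3 or E10.5 library 4, 9 without E10.5 library 2 and 11 without E10.5 library 5. It was 0 when the compared groups were fitted alone and 1 with the replicate number as a block, and the share of all genes called was 0.171% and 0.135% in these fits, against 8.562%. Surface ectoderm markers were higher at E10.5 (3 of 10 passed, -0.65 to 2.67 against -0.64 to 0.95) and endothelial markers lower (9 of 10, -0.99 to 0.45 against 0.36 to 1.99), as were mesenchyme markers (3 of 10, 0.16 to 1.47 against 1.64 to 2.63). Their part in the difference was not tested. Against the E9.5 libraries, E10.5 library 5 alone, the one without surface ectoderm markers, gave a median difference of -1.82, against -0.16 over all genes. This library had the lowest mean over the 44 genes of its group (-1.48) and a 5th percentile of -1.9. As 1 library, it has no spread of its own.

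In neuroepithelium, 1 gene differed between the stages. Ccnd2, a D cyclin of neural progenitors, was at 0.97, 1.25, 1.08, 0.64 and 1.35 in E9.5 neuroepithelium and at -1.15, -0.41, -2.38, -1.18 and -0.32 in the E8.5 non-floor plate. The groups did not overlap, and the difference was 2.14 ± 0.54 (adjusted p 0.02, against 0.401% of all genes higher and 0.657% lower) and 2.21 with the 5th percentile in the fit (adjusted p 0.004). It did not pass without E8.5 non-floor plate library 3 (1.82, adjusted p 0.14) or E9.5 library 5 (2.07, adjusted p 0.062), nor with the replicate block (adjusted p 0.097). From E9.5 to the E10.5 control neuroepithelium 0 genes passed (0.281% of all genes higher, 0.145% lower) and 3 had an unadjusted p under 0.05, against 5.66% of all genes. The largest difference there was Rrm1, at 0.48 to 2.05 at E10.5 and -1.6 to 0.99 at E9.5 (1.74 ± 0.76, adjusted p 0.71).

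Of the other comparisons, 0 of the 44 genes passed by limma in any. Between E9.5 cranial mesenchyme and E8.5 mesenchyme (0.381% of all genes higher, 1.15% lower), 6 had an unadjusted p under 0.05 (13.6%, against 11.8% of all genes), and the largest difference was Mcm6 at -1.43 ± 0.69 (adjusted p 0.4). Outside the list, Rfc5, a subunit of the clamp loader, was lower (-1.4, adjusted p 0.036), and did not pass with the 5th percentile in the fit (-1.25, adjusted p 0.062). Between E10.5 maxillary arch ectoderm and E9.5 epidermal ectoderm (0.181% higher, 0.181% lower) 5 did (11.4%, against 10.4%), and the largest was Tpx2, an activator of Aurka on the spindle, at -1.37 ± 0.56 (adjusted p 0.33). At E8.5, mesenchyme against neural epithelium (1.65% higher, 0.752% lower) had 1 such gene (2.27%, against 8.13%), with Cdk2 the largest difference (-0.95 ± 0.6, adjusted p 0.94). Floor plate against non-floor plate (0.0903% higher, 0.0903% lower) had 0, against 4.54% of all genes, with Ccnd2 the largest at 0.73 ± 0.57 (adjusted p 1).

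At E9.5, neuroepithelium against cranial mesenchyme (0.517% of all genes higher, 0.632% lower) had 2 genes with an unadjusted p under 0.05 (4.55%, against 7.15% of all genes), led by Nusap1 (1.31 ± 0.53, adjusted p 0.42). The arches against cranial mesenchyme (0.742% higher, 0.191% lower) had 8 (18.2%, against 13.5%), and 38 of the 44 differences were above 0 (86.4%, against 56.8% of all genes). The median was 0.53, and it was 0.34 with the 5th percentile in the fit and 0.28 after quantile normalization. Rrm1 was at -1.6, 1.46 and 2.64 in the arches and at -2.53, -0.77 and 0.77 in mesenchyme, with overlap (1.85 ± 0.58, adjusted p 0.099). It passed with the 5th percentile in the fit (1.52, adjusted p 0.05). Outside the list, Kif4, a chromosome motor, was higher in the arches (1.08, adjusted p 0.045), and did not pass with the 5th percentile in the fit (1.0, adjusted p 0.052). Otic vesicle against epidermal ectoderm (0.311% higher, 0.0802% lower) had 11 (25.0%, against 11.1%), with 40 of the 44 differences above 0 (90.9%, against 51.6% of all genes) and Ccna2 the largest at 1.62 ± 0.53 (adjusted p 0.17). The median of 0.43 was 0.11 with the 5th percentile in the fit and 0.19 after quantile normalization. Without otic vesicle libraries 3 and 5 the number that passed was 0 as well.

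Within E10.5 neuroepithelium, midline against control (0.261% higher, 0.211% lower) and the part under the prominences against control (0.0502% higher, 0.246% lower) had 0 genes with an unadjusted p under 0.05, against 4.67% and 3.43% of all genes. The largest differences were Aurka at -0.85 (adjusted p 1) and Cdc45 at -0.98 (adjusted p 1). The olfactory pit against maxillary arch ectoderm (0.507% higher, 0.186% lower) had 5 such genes (and 1998 of all 19938 genes). Ccnd2 was at -2.97 to 0.06 in the pit and at 0.33 to 0.7 in ectoderm, with no overlap, but did not pass (-1.53 ± 0.6, adjusted p 0.29), and Gadd45g, outside the list, was higher (3.71, adjusted p 0.0011, and 3.52 with the 5th percentile in the fit).

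Rathke's pouch against maxillary arch ectoderm (0.687% higher, 0.943% lower) had 7 genes with an unadjusted p under 0.05 (2798 of all 19938 genes), led in size by Ccnd1 (1.38 ± 0.54, adjusted p 0.19). With the 5th percentile in the fit 4 passed, against 2.147% of all genes higher and 2.693% lower: Ccnd1 (1.43, adjusted p 0.046) and Mcm7 (1.17, adjusted p 0.016) were higher, and Cdk1 (-1.13, adjusted p 0.013) and Birc5, the survivin gene (-0.83, adjusted p 0.023), lower. Ccnd1 was at -1.33 to 0.56 in the pouch and at -2.2 to -1.02 in ectoderm, and Cdk1 at -2.83 to -0.43 and at -1.2 to 0.04, both with overlap.

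The median difference of the 44 genes also moved with the 5th percentile in the fit in comparisons in which none had passed without it. It went from -0.41 to -0.08 between the mesenchyme stages, from -0.33 to -0.13 between the ectoderm stages and from 0.17 to 0.02 in E9.5 neuroepithelium against mesenchyme. In the olfactory pit against ectoderm it went from 0.08 to -0.18, a change of sign, and in Rathke's pouch from -0.17 to -0.11. It went from 0.3 to 0.38 between E9.5 and E10.5 neuroepithelium, from -0.14 to -0.16 in E8.5 mesenchyme against neural epithelium and from -0.07 to -0.01 in floor plate against non-floor plate. Within E10.5 neuroepithelium it went from -0.08 to -0.04 for midline and from -0.18 to -0.07 for the part under the prominences. For the difference between the stage changes it went from 0.01 to -0.17.

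Changes were also compared with each other. The stage difference of neuroepithelium between E9.5 and E8.5 did not differ from that of mesenchyme for any of the 44 genes by limma (0.266% of all genes higher, 0.1% lower), with Ccnd2 the largest at 1.34 (adjusted p 1). The difference between neuroepithelium and the prominences at E10.5 was set against that between neuroepithelium and cranial mesenchyme at E9.5 (0.502% of all genes higher, 0.271% lower). Aurkb was the 1 gene that passed, with a difference of differences of 2.4 ± 0.62 (adjusted p 0.041), from 2.03 at E10.5 and -0.37 at E9.5. The median over the 44 genes was 1.05 (0.59 with the 5th percentile in the fit), and 27 had an unadjusted p under 0.05 (61.4%, against 14.9% of all genes). Aurkb did not pass with the 5th percentile in the fit (1.76, adjusted p 0.091) or without any 1 of 16 of the 35 libraries (adjusted p 0.05 to 0.11), and without lateral nasal prominence 3 the number of genes that passed was 10. Over all genes, leaving out 1 library in turn gave 44 to 412 calls, against 154 with all libraries.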

How the data were processed

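The values the authors deposited are linear ratios, 1 per probe set and sample. RMA and genome build mm9 are named per the submitters' processing notes, and how the authors made the ratio is not given in the sources used here. From the values, the median of every probe set over 21 samples was 1 within 6e-08. The smallest ratio was 0.01, which 0 values of the listed genes had. The log2 of the ratio was used where the planned design had assumed log2 levels, and the planned filter on low values was left out, since ratios rank no gene by its level. Of 28856 probe sets with values, 21789 had 1 gene symbol, and 999 genes had more than 1, of which the one highest in mean log2 ratio stood for the gene.

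Group means were fitted to all grouped samples with limma 3.58.1 in R 4.3.3 (22 groups, 80 residual degrees of freedom), with 16 contrasts and 2 differences of contrasts, after a test on simulated data. Adjusted p is Benjamini-Hochberg over 19938 genes within a comparison, called under 0.05. The alternatives, 12 planned and 4 added after seeing the data, included the 5th percentile as a covariate. Any listed gene could be named; singled out are up to 4 called genes of a direction per comparison or the 1 largest, the 5 largest and 3 smallest F, and up to 3 called genes per other list, with further listed genes chosen after their values were seen. The genes and lists were chosen with earlier results of these data known. Promoters are from RefSeq. The number of arrays limits the precision.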

Additional observations from a re-analysis of the deposited data

Results flagged for a closer look

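Group values of the mean over all 44 genes, the replication genes and the mitosis genes were searched for a library that stood far from the rest of its group. Of 66 group values tested, 4 were found, which is near the 1 in 20 that chance gives. The replication and mitosis genes are among the 44, so these values are not independent. E9.5 epidermal ectoderm library 7 had a mean of -2.28 over the 44 genes, against -0.88 to -0.19 in the other 6 libraries, and a mean of -1.94 over the mitosis genes. E10.5 maxillary arch ectoderm library 4 had a mitosis mean of -0.15, against -1.12 to -1.05 in the other libraries of its group. E9.5 cranial mesenchyme library 2 had a mitosis mean of 0.75, the highest of its 6 libraries. The difference of Aurkb between neuroepithelium and mesenchymal tissue was 2.4 larger at E10.5, against the nasal prominences, than at E9.5, against cranial mesenchyme (adjusted p 0.041, limma), in a test of the difference itself.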

How the results depend on the processing

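Counts of the 44 genes that passed kept within 1.5 times of the reported count in most alternatives, with these exceptions. With the 5th percentile as a covariate, the counts were 7 for the maxillary arch stages, 1 for arches against mesenchyme, 4 for ectoderm against arches, 15 for neuroepithelium against prominences, 4 for Rathke's pouch, 0 for the difference between tissues and 27 for the F over groups. Over all genes the calls were 3.23%, 0.988%, 5.21%, 8.78%, 4.84%, 0.396% and 25.6% in these comparisons. Without the covariate they were 8.56%, 0.933%, 37.0%, 35.1%, 1.63%, 0.772% and 59.0%. With quantile normalization the counts were 1 for neuroepithelium at E10.5 against E9.5, 7 for the maxillary arch, 2 for neuroepithelium against mesenchyme, 2 for arches, 21 for ectoderm against arches, 1 for otic vesicle and 5 for the difference between tissues. Over all genes the calls were 0.978%, 4.54%, 2.31%, 1.09%, 25.8%, 0.331% and 1.82% in these comparisons. Without this normalization they were 0.426%, 8.56%, 1.15%, 0.933%, 37.0%, 0.391% and 0.772%. With array weights the counts were 2 for neuroepithelium at E9.5 against E8.5, 7 for the mesenchyme stages, 27 for the maxillary arch, 2 for the ectoderm stages, 1 for neuroepithelium against mesenchyme, 17 for arches, 1 for Rathke's pouch and 16 for the difference between tissues. Array weights raised the calls over all genes as well, to 4.86%, 8.91%, 24.7%, 1.73%, 3.02%, 17.5% and 5.26% in these comparisons other than Rathke's pouch, where it was 1.43%. The maxillary arch gave 10 without the widely spread arrays and 0 when fitted alone, and ectoderm against arches gave 21 when fitted alone. The maxillary arch share over all genes was 5.16% without those arrays and 0.171% when fitted alone. For ectoderm against arches fitted alone it was 19.6%. With library 5 as the only E10.5 maxillary arch library the count also moved. It is not given, since 1 library has no spread of its own. With the replicate number as a replicate block, the counts were 0 for neuroepithelium at E9.5 against E8.5, 1 for the maxillary arch, 1 for arches, 6 for ectoderm against arches and 31 for neuroepithelium against prominences, and Mcm6, Cdk2 and Rrm1 lost their calls in ectoderm (adjusted p 0.063, 0.066 and 0.1). Over all genes the calls were 0.13%, 0.135%, 0.0702%, 3.53% and 22.4% in these comparisons. Without the block and in all groups they were 1.06%, 8.56%, 0.933%, 37.0% and 35.1%. Whether the numbers pair samples is not settled. In no comparison did all libraries of the same number deviate together, which does not exclude pairing of some. Median r between same-numbered libraries was 0.22, against -0.096 for other pairs, in the maxillary arch. It was 0.19 against -0.043 for arches against mesenchyme, and -0.062 against 0.027 for ectoderm against arches. Top2a in neuroepithelium against prominences turned to 0.09 with the mean of both probe sets and to 0.96 with the other one. Leaving out each library in turn gave 0 to 1 genes for neuroepithelium at E9.5 against E8.5, 3 to 26 for the maxillary arch, 0 to 1 for the ectoderm stages (1 without E9.5 library 7), 0 to 3 for arches (3 without cranial mesenchyme library 2), 24 to 35 for ectoderm against arches, 0 to 2 for otic vesicle, 35 to 38 for neuroepithelium against prominences, 0 to 2 for Rathke's pouch (2 without pouch library 3), 0 to 10 for the difference between tissues and 41 to 43 for the F. Calls over all genes moved as well in these fits. They were 154 to 241 for neuroepithelium at E9.5 against E8.5 and 357 to 3715 for the maxillary arch. The ectoderm stages gave 52 to 155, arches 80 to 927, ectoderm against arches 4161 to 8669 and otic vesicle 22 to 175. Neuroepithelium against prominences gave 5217 to 7815 and Rathke's pouch 188 to 914. The difference between tissues gave 44 to 412 and the F 11312 to 12143. For the changes in counts, the cause was not tested.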

Other observations

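The E9.5 sample with conflicting labels (mandibular arch by title, epidermal ectoderm by tissue label) had a mean log2 ratio of 0.45 over the 44 genes, 0.65 over the replication genes, 0.45 over the G1 genes and 0.33 over the mitosis genes. Its 5th percentile was -0.31, and its mesenchyme and surface ectoderm markers were at 1.74 and 1.56.

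Outside the listed genes, Gadd45g, a stress-inducible gene also expressed as neural progenitors leave the cycle, was higher in E8.5 mesenchyme than in neural epithelium (2.26, adjusted p 0.0018, limma). In Rathke's pouch, Gins4 (-2.05, adjusted p 0.018), a replication gene, and Ube2c (-0.88, adjusted p 0.028), which marks mitotic cyclins for destruction, were lower than in maxillary arch ectoderm.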
